A study of Mus musculus with 12 samples.

Results

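Control cortical neurons were compared between 16 h and 48 h of culture, using the 6 libraries that received only the solvent DMSO, 3 at each time, of the 12 libraries of the series. The members were chosen by their labels alone. Of the 51912 genes in the deposited table, 15610 had a mean of at least 1 TPM over these 6 libraries and were tested. TPM is a transcript level corrected for length, as a part of a fixed library total.

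The series asked what the mushroom compound erinacine S does to neurons, and the other 6 libraries received it for the same times. The cells came from E17.5 embryos of C57BL/6J mice. Cortices freed of meninges were digested with trypsin and triturated, and the cells were plated in 15-cm dishes in a medium with serum. After 3 h a serum-free maintenance medium with B27 replaced it, and DMSO was added 1 h later. The groups used here are therefore DMSO 16 h and DMSO 48 h, which share the stated strain, tissue and handling and differ by their labels in the time that followed. Libraries of a group are labelled as independent repeats. They do not give the litters, dishes or days behind them or say whether embryos were pooled, and a p-value here therefore reflects library-to-library spread that may be only technical. Time in culture also cannot be told apart from anything else that differed between the 16 h and the 48 h harvests.

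Neurons dissociated from the embryonic cortex lose their processes and their contacts when they are plated. In the following days they regrow an axon and dendrites, assemble synapses, replace early ion channels and receptors by those of later stages, and switch their chloride transport. The cultures are made by dissection, not by sorting, so they also hold progenitors, glial cells of several kinds and cells of the blood, and total RNA measures all of them at once. A higher or lower level in such bulk RNA can come from more or fewer cells of a type or from more or less RNA per cell, and these cannot be told apart.

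Marker genes of neurons were abundant in every library. The 6 markers of neurons, Tubb3, Map2, Rbfox3, Snap25, Syt1 and Stmn2, summed to 3190 to 3820 TPM at 16 h and 4890 to 5200 TPM at 48 h. The 6 markers of excitatory neurons summed to 1700 to 1850 TPM and then to 1310 to 1350 TPM, without overlap, and 3 of them fell. The 5 markers of inhibitory neurons summed to 441 to 648 TPM and 412 to 489 TPM. Astrocyte markers (7) summed to 44.2 to 60.6 TPM at 16 h and 91.9 to 106 TPM at 48 h, with Gfap at 0.546 to 1.93 TPM and 2.17 to 3.46 TPM. The 8 microglia markers summed to 18.1 to 34.7 TPM and 19.1 to 26.8 TPM, and the 6 endothelial and mural cell markers to 1.97 to 2.42 TPM and 2.01 to 2.62 TPM. Fibroblast and red blood cell markers had lower sums at 48 h. The 5 fibroblast and meningeal markers summed to 3.48 to 5.77 TPM at 16 h and 1.53 to 1.92 TPM at 48 h, and the 4 red blood cell markers to 24.6 to 49.1 TPM and 2.48 to 8.47 TPM. Among these fibroblast markers only Dcn was abundant enough to be tested, and it fell (2.74, 1.98 and 3.2 TPM, then 0.1, 0.381 and 0.336 TPM). The lower fibroblast sum rested mainly on Dcn. Col1a1, Col1a2, Col3a1 and Lum were under 1 TPM in every DMSO library and each overlapped between the times. In a longer list of fibroblast and meningeal genes 4 were tested, of which 1 (Dcn) fell and none rose (median log2 change 0.04).

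Across the 15610 genes, 5331 (34.2%) differed between the times by limma on log2(TPM + 1) with a Benjamini-Hochberg adjusted p under 0.05. Of these, 2682 (17.2% of the genes tested) were higher and 2649 (17%) lower at 48 h. The change was at least 1 on the log2 scale for 325 genes that rose (2.08%) and 243 that fell (1.56%). The libraries of the 2 times did not overlap for 7887 genes (50.5%). The count of calls fell to 3175 without DMSO 48 h replicate 1 and to 3441 without DMSO 48 h replicate 3, the libraries whose absence moved it by more than 1.5 times. It fell to 3555 without DMSO 48 h replicate 2, where the lower genes moved by more than 1.5 times, from 2649 to 1640. None of the 5331 genes changed its sign without any of these 6 libraries. For 5306 of them the libraries of the 2 times did not overlap, so leaving out 1 library could not change it. In the gene groups described next, a member is said to rise or fall where it passed this test, and its log2 change is the difference of mean log2(TPM + 1), 48 h minus 16 h, so low genes changed by more than it shows. Each SE and p comes from 3 libraries a time.

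**Figure D1:**
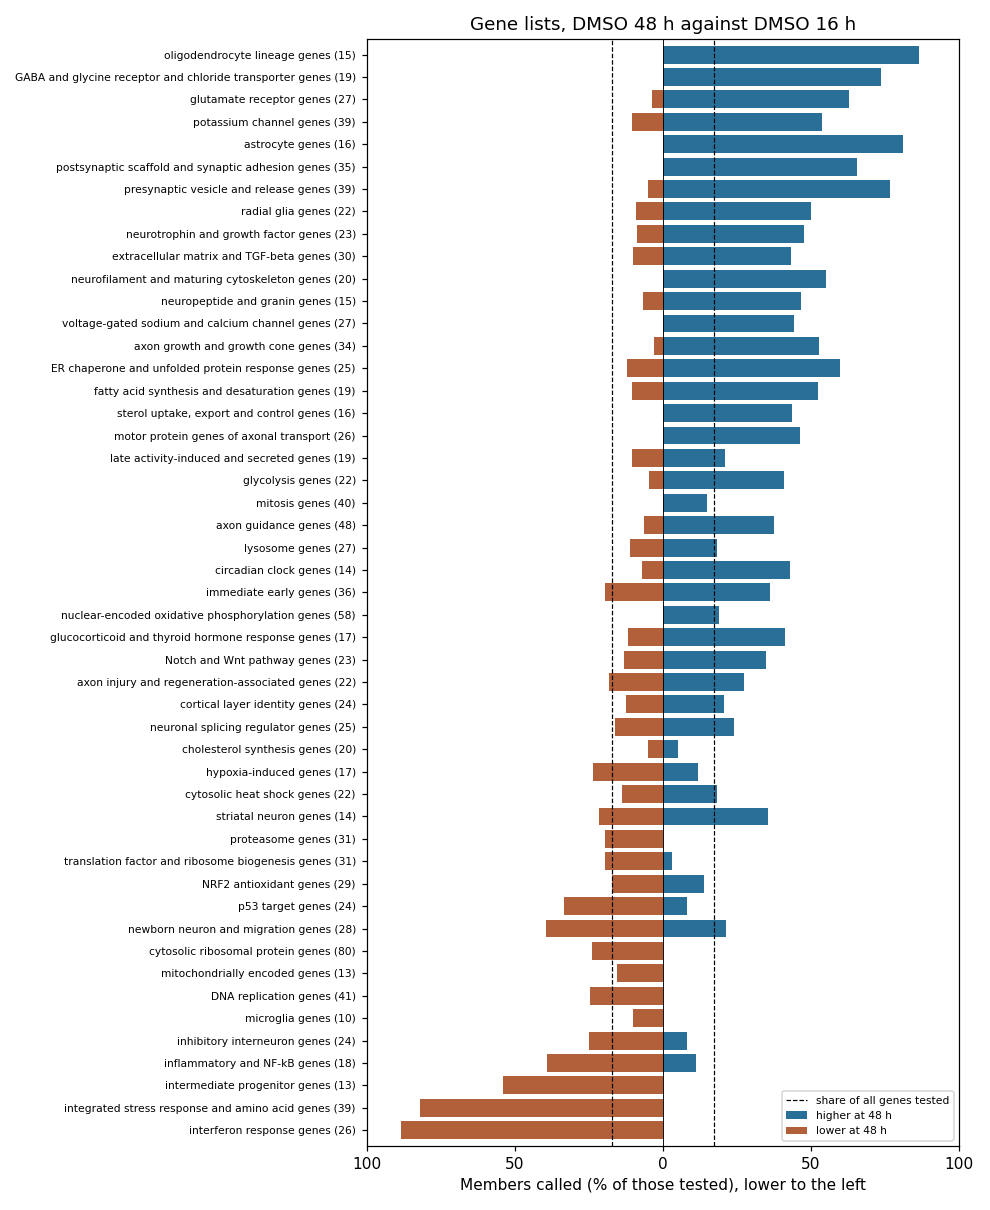
Members of each gene list called higher (bars to the right) or lower (bars to the left) at 48 h in DMSO, as a percentage of the members tested (number in brackets), for lists with at least 10 members tested and ordered by their median log2 fold change. Dashed lines mark the shares over all genes tested, 17.2% higher and 17% lower. Synaptic, receptor and glial lists lie at the top, and the integrated stress response and interferon lists at the bottom.

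Most genes of the presynaptic terminal rose. Of 39 tested genes for synaptic vesicles and transmitter release, 30 rose, 2 fell and 7 did not pass, with a median log2 fold change of 0.50 against -0.03 over all genes. Rph3a, which encodes the vesicle protein rabphilin, stood at 44.3, 37.5 and 37.2 TPM at 16 h and at 80.5, 88.4 and 75.5 TPM at 48 h, a log2 change of 1.02 with SE 0.09 (adjusted p = 0.000311). Rab3c, a small GTPase of synaptic vesicles, rose from 69.6 ± 3.03 to 127 ± 3.48 TPM (SD, n = 3 each). The groups did not overlap for either gene. Syngr3, Syt7, Amph and Dnm1, which act in vesicle structure, calcium sensing and vesicle retrieval, rose by 0.73, 0.61, 0.58 and 0.80 on the log2 scale. Leaving out any single library gave 26 to 30 rising members.

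Of 35 tested genes of the postsynaptic scaffold and of synaptic adhesion, 23 rose, none fell and 12 did not pass, with a median of 0.52. Camk2a, the kinase subunit that becomes abundant as excitatory synapses mature, stood at 10.7, 10.8 and 12 TPM at 16 h and at 32.2, 27.4 and 29.6 TPM at 48 h (log2 change 1.33 with SE 0.09; adjusted p = 0.000116). Camk2b, its partner subunit, was the more abundant of the pair at both times, at 286 ± 21.4 and 563 ± 37.7 TPM (SD, n = 3 each). Every 48 h library was above every 16 h library for both subunits. The adhesion gene Cadm2 rose by 1.38, with 1 lower library at 48 h (82.7, 82.3 and 51.7 TPM against 28.7, 27.4 and 23.9 TPM at 16 h).

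Of 27 tested glutamate receptor genes, 17 rose, 1 fell and 9 did not pass (median 0.57). Grin2a, which encodes the NMDA receptor subunit of more mature synapses, was near the limit of the filter at 16 h, at 1.40, 0.622 and 0.688 TPM. It stood at 4.48, 4.13 and 4.42 TPM at 48 h (log2 change 1.51 with SE 0.17; adjusted p = 0.000773). The metabotropic receptor genes Grm2, Grm5 and Grm3 rose by 1.30, 1.25 and 1.25, and Grin1, the obligatory NMDA receptor subunit, by 0.83. Gria2, whose product keeps AMPA receptors impermeable to calcium, was the member that fell. It is named here after its values were seen, and stood at 356, 394 and 324 TPM at 16 h and at 256, 256 and 268 TPM at 48 h (log2 change -0.45 with SE 0.08; adjusted p = 0.00413).

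Receptors of the inhibitory transmitters and chloride transporters gave 14 rising members of 19, none falling and 5 that did not pass (median 0.60). Slc12a5 (ENSMUSG00000017740, chromosome 2, 164960802 to 164999731) encodes KCC2, the transporter that exports chloride from mature neurons. Its 16 h libraries stood at 9.05, 9.72 and 8.82 TPM and its 48 h libraries at 23.4, 19.0 and 23.2 TPM (log2 change 1.16 with SE 0.10; adjusted p = 0.000298). Slc12a2, which encodes the importer NKCC1 of immature neurons, did not pass and overlapped between the times, at 22.5, 20.5 and 18.0 TPM and at 18.2, 20.0 and 19.5 TPM (log2 change -0.08 with SE 0.10; adjusted p = 0.566; named after its values were seen). Gabbr2, a subunit of the GABA-B receptor, rose from 23.5 ± 3.63 to 60.0 ± 4.48 TPM (SD, n = 3 each), and the GABA-A subunits Gabrb2, Gabra5 and Gabra4 by 0.90, 1.00 and 1.07 on the log2 scale.

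Ion channel genes included some of the largest rises. Of 39 tested potassium channel genes, 21 rose, 4 fell and 14 did not pass (median 0.57). Kcnk9 (ENSMUSG00000036760, chromosome 15, 72512119 to 72546279) encodes TASK-3, a leak channel that sets the resting potential. Its libraries stood at 3.06, 2.75 and 2.97 TPM at 16 h and at 24.3, 23.4 and 16.9 TPM at 48 h, 7.36 times the mean (log2 change 2.50 with SE 0.14; adjusted p = 8.81e-05). The inward rectifier Kcnj4 and Kcnip4, a modulator of A-type channels, rose by 1.92 and 1.65. Kcnn2, a calcium-activated channel, fell from 19.5 ± 0.454 to 10.8 ± 1.06 TPM (SD, n = 3 each). Of 27 tested sodium and calcium channel genes, 12 rose, none fell and 15 did not pass (median 0.32), and 5 rose without DMSO 48 h replicate 1 and 6 without replicate 3. The T-type calcium channel gene Cacna1i rose from 2.14 ± 0.251 to 9.41 ± 0.494 TPM and the pacemaker channel gene Hcn2 from 16.1 ± 4.25 to 50.1 ± 6.48 TPM (SD, n = 3 each).

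**Figure D2:**
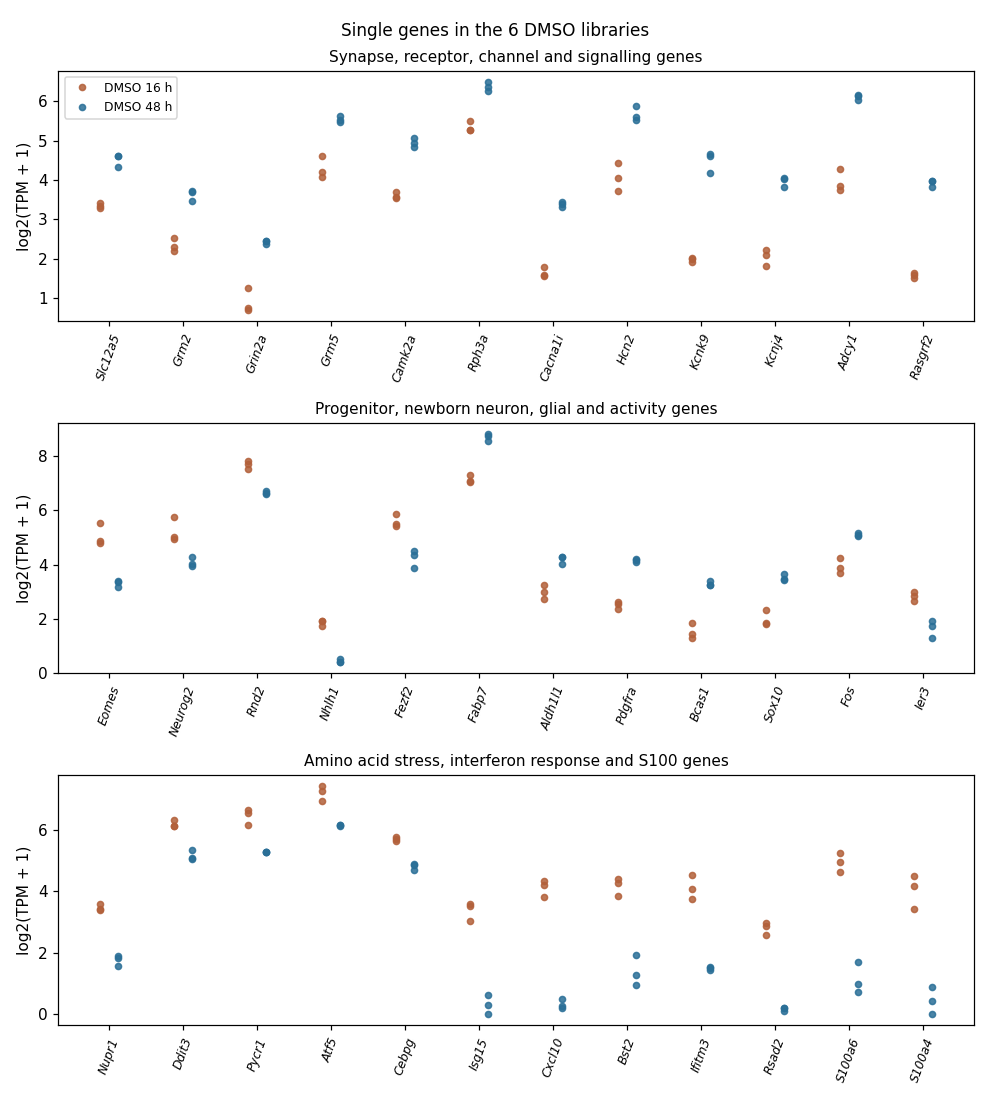
Levels of single genes as log2(TPM + 1) in the DMSO libraries, 1 point per library, 3 at 16 h and 3 at 48 h. The upper panel holds synapse, receptor, channel and signalling genes, the middle panel progenitor, newborn neuron, glial and activity genes, and the lower panel amino acid stress, interferon response and S100 genes; all 36 genes passed the test and their points do not overlap between the times.

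Axon and cytoskeleton genes moved in the same direction by smaller amounts. Of 34 tested axon growth genes 18 rose and 1 fell (median 0.29), and 11 of 20 neurofilament and cytoskeleton genes (0.37) and 12 of 26 motor protein genes (0.25) rose with none falling. Mapt, which encodes tau, stood at 698, 629 and 618 TPM and at 1015, 1002 and 1048 TPM (log2 change 0.66 with SE 0.07; adjusted p = 0.000672). The axonal adhesion gene Cntn1 rose from 21.0 ± 2.63 to 70.3 ± 1.505 TPM, the dendritic Map1a from 12.3 ± 1.91 to 29.0 ± 2.07 TPM and the neurofilament gene Nefl from 24.8 ± 4.92 to 46.8 ± 1.65 TPM (SD, n = 3 each). Motor protein calls depended on single libraries, with 8 to 15 rising members when 1 library was left out. Of 48 axon guidance genes, 18 rose and 3 fell (median 0.23). Plxnd1, a semaphorin receptor, and Sema3c, a secreted semaphorin, rose by 1.94 ± 0.11 and 1.97 ± 0.14 on the log2 scale (SE, n = 3 each; adjusted p = 8.81e-05 and 0.00015).

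Signalling genes held further large changes. Rasgrf2, a calcium-regulated Ras activator, stood at 2.02, 1.83 and 2.08 TPM and at 14.7, 14.6 and 13.1 TPM (log2 change 2.34 with SE 0.10; adjusted p = 7.81e-05). Adcy1, the calcium-stimulated adenylyl cyclase, stood at 18.5, 13.3 and 12.5 TPM and at 70.3, 64.3 and 69.4 TPM (log2 change 2.15 with SE 0.14; adjusted p = 0.000109). Klf9, a transcription factor induced by thyroid hormone and glucocorticoids, rose from 4.87 ± 0.704 to 39.6 ± 7.26 TPM, and Nr3c1, the glucocorticoid receptor, from 2.37 ± 0.466 to 6.67 ± 0.482 TPM (SD, n = 3 each). In the same list of 17 hormone response genes 7 rose and 2 fell, among the latter Tsc22d3, a glucocorticoid target, which went from 39.7 ± 6.02 to 18.6 ± 0.551 TPM. Of 23 neurotrophin and growth factor genes 11 rose and 2 fell (median 0.42). Ntrk2, the receptor of brain-derived neurotrophic factor, stood at 43.4, 40.8 and 35.7 TPM and at 108, 98.0 and 109 TPM (log2 change 1.37 with SE 0.09; adjusted p = 0.000109). Cyp46a1, the neuronal enzyme that hydroxylates cholesterol for export, rose from 15.3 ± 0.375 to 37.2 ± 1.34 TPM (SD, n = 3 each), while of the 20 cholesterol synthesis enzymes 1 rose, 1 fell and 18 did not pass (median 0.03). Without DMSO 16 h replicate 1 there were 5 rising members with a median of 0.16, without DMSO 16 h replicate 3 there was 1, and without any of the other 4 libraries there were none.

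Intermediate progenitor genes moved in the other direction. Among 13 tested intermediate progenitor genes there were 7 that fell and 6 that did not pass, with none rising (median -0.45), with 4 falling without DMSO 48 h replicate 1 or replicate 2. Without DMSO 16 h replicate 2 the median was -0.26, with 5 falling. Eomes (ENSMUSG00000032446, chromosome 9, 118478212 to 118486132) encodes Tbr2, the defining transcription factor of these progenitors. It stood at 28.5, 44.8 and 27.0 TPM at 16 h and at 9.55, 7.99 and 9.24 TPM at 48 h (log2 change -1.76 with SE 0.18; adjusted p = 0.000539). Neurog2, a proneural factor, was highest in the same library, at 29.7, 53.8 and 31.5 TPM and then at 15.2, 14.4 and 18.6 TPM. Of 28 newborn neuron and migration genes 11 fell, 6 rose and 11 did not pass (median -0.14), and 3 rose without DMSO 48 h replicate 1 or 3. Leaving out DMSO 16 h replicate 1 or 2 moved that median to -0.21 or -0.08. Rnd2, a small GTPase of radial migration, fell from 205 ± 20.0 to 99.8 ± 3.09 TPM and the transcription factor Nhlh1 from 2.61 ± 0.275 to 0.359 ± 0.0654 TPM (SD, n = 3 each). Reln, which encodes a secreted signal, rose from 11.8 ± 2.32 to 34.8 ± 5.36 TPM, while Ebf3 of the same list fell from a mean of 3.23 to 0.561 TPM. Among 24 layer identity genes 5 rose and 3 fell. These counts were 3 and 5 without DMSO 16 h replicate 1, 7 and 2 without DMSO 16 h replicate 2, 4 and 2 without DMSO 48 h replicate 1, 3 and 1 without DMSO 48 h replicate 2, and 3 and 3 without DMSO 48 h replicate 3. Fezf2, which specifies deep-layer projection neurons, stood at 57.4, 44.5 and 42.5 TPM and at 13.8, 19.4 and 21.8 TPM (log2 change -1.36 with SE 0.17; adjusted p = 0.00114). Cux1, of upper layers, rose from 118 ± 9.38 to 198 ± 3.99 TPM.

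Oligodendrocyte lineage, astrocyte and radial glia lists had more rising than falling members, whereas of 10 tested microglia genes 1 fell and none rose (median -0.25, or 0.10 without DMSO 16 h replicate 1). Of 15 tested oligodendrocyte lineage genes 13 rose, none fell and 2 did not pass, with the highest list median, 1.11, among lists with at least 10 members tested. Pdgfra (ENSMUSG00000029231, chromosome 5, 75152292 to 75198215), the growth factor receptor of oligodendrocyte precursors, stood at 4.11, 5.15 and 4.80 TPM and at 17.0, 17.4 and 16.0 TPM (log2 change 1.65 with SE 0.10; adjusted p = 0.000109). Sox10, the lineage factor, and Bcas1, of early myelinating cells, rose by 1.54 and 1.77. Of 16 astrocyte genes 13 rose and none fell (median 0.57), and 7 rose with all 12 libraries in 1 fit, where the erinacine S libraries enter the estimate of the spread. Aldh1l1, a folate enzyme used as an astrocyte marker, stood at 5.66, 8.50 and 6.84 TPM and at 18.3, 18.3 and 15.4 TPM (log2 change 1.21 with SE 0.14; adjusted p = 0.00085), and it did not pass in that fit. Of 22 radial glia genes 11 rose and 2 fell (median 0.48), and 7 rose without DMSO 16 h replicate 1 or without DMSO 48 h replicate 2 or 3. Fabp7, the fatty acid binding protein of radial glia, rose from 141 ± 14.6 to 418 ± 39.0 TPM (SD, n = 3 each). Pax6, the transcription factor of cortical radial glia, fell from 18.6 ± 4.02 to 12.5 ± 0.819 TPM and is named after its values were seen.

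The medians of the 2 cell cycle lists differed in sign in DMSO, with calls not far from the shares over all genes. Falls were called for 10 of 41 DNA replication genes and rises for none (median -0.18), and without single libraries 4 to 13 fell, with 5 without DMSO 16 h replicate 1 or DMSO 48 h replicate 1 and 4 without DMSO 48 h replicate 3. Mcm7, a helicase subunit, stood at 158, 169 and 162 TPM and at 88.5, 93.7 and 96.9 TPM (log2 change -0.80 with SE 0.06; adjusted p = 0.000189). Of 40 mitosis genes 6 rose, none fell and 34 did not pass (median 0.23), and 10 rose without DMSO 16 h replicate 1, 4 without DMSO 16 h replicate 2, 1 without DMSO 48 h replicate 2 and 2 without any of the other 3. The rising share of mitosis genes, 15%, was below the 17.2% of all genes, and the falling share of replication genes was 24.4% against 17%. In erinacine S the mitosis median was -0.25 with none called. Without erinacine S 48 h replicate 1 it was 0.19, with 2 rising. Cdc20, which activates the anaphase-promoting complex, stood at 16.2, 20.1 and 16.1 TPM and at 23.4, 25.3 and 23.9 TPM. Among 80 ribosomal protein genes 19 fell and none rose (median -0.17), with 2, 4 and 6 falling without DMSO 48 h replicates 1, 2 and 3, and 7 and 36 without DMSO 16 h replicates 1 and 2.

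Genes of the integrated stress response, by which the factor ATF4 raises amino acid synthesis and import genes, were mostly lower at 48 h. Of 39 tested members 32 fell, none rose and 7 did not pass (median -0.56), with 26 to 32 falling when any single library was left out. Atf4 itself, named after its values were seen, fell from 443 ± 34.7 to 288 ± 20.3 TPM (SD, n = 3 each). Ddit3 (ENSMUSG00000025408, chromosome 10, 127290774 to 127296288) encodes CHOP, the factor linked to prolonged stress. It stood at 68.5, 67.9 and 78.2 TPM and at 31.8, 32.5 and 39.4 TPM (log2 change -1.03 with SE 0.10; adjusted p = 0.000421). Nupr1, a stress-induced chromatin protein, stood at 9.43, 9.60 and 10.9 TPM and at 2.73, 1.96 and 2.54 TPM (log2 change -1.69 with SE 0.13; adjusted p = 0.000161). Pycr1, of proline synthesis, Atf5 and Cebpg, both partner transcription factors, and Slc3a2, a subunit of amino acid transporters, fell by 1.19, 1.06, 0.90 and 0.72. By contrast, 15 of 25 ER chaperone and unfolded protein response genes rose and 3 fell (median 0.28), among them Hspa5, the ER chaperone BiP, from 143 ± 17.4 to 228 ± 6.96 TPM (SD, n = 3 each). The rising members numbered 7 when DMSO 48 h replicate 1 or 2 was left out, and 8 in the case of replicate 3. Vegfa, an angiogenic factor of the hypoxia list, fell from 184 ± 18.8 to 86.6 ± 6.35 TPM. In that list of 17 tested genes 4 fell, 2 rose and 11 did not pass (median -0.02).

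Promoter windows of the genes that fell were searched for the letters that ATF4 dimers bind, the amino acid response element TGATGCAA, on both strands of the 250 bases before a RefSeq gene start (build GRCm38.p6). Of 25 falling members of the list with such a window 5 held it, or 20%, against 0.644% of 10245 tested genes and 0.918% of 27025 genes with a window. The list was gathered from genes of the ATF4 response, so this share reflects that choice and cannot be tied to the fall. These 5 (Chac1, Slc7a11 and Aars chosen after their values were seen) are printed because they carry the element, and a match is a description of the letters only. Each line reads 5′ to 3′ on the gene's strand, with the element in capitals, which appears as its reverse complement TTGCATCA in some.
Chac1, chr2:119351009-119351096, plus strand: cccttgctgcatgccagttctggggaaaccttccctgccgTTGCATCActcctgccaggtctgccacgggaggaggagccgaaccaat
Slc7a11, chr3:50443632-50443719, minus strand: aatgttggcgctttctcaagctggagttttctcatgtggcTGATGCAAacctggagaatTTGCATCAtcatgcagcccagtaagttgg
Aars, chr8:111033690-111033777, plus strand: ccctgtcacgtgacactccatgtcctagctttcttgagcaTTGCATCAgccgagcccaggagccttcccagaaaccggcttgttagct
Nupr1, chr7:126625533-126625620, minus strand: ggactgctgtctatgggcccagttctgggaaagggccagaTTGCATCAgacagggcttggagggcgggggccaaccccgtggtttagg
Pycr1, chr11:120643804-120643891, minus strand: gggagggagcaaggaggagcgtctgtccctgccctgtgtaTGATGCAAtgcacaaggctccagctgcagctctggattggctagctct
Chac1, which degrades glutathione, stood at 40.3, 72.2 and 56.7 TPM at 16 h and at 20.2, 17.9 and 21.4 TPM at 48 h. Slc7a11, the cystine importer, stood at 5.14, 3.01 and 2.46 TPM and at 1.00, 1.07 and 1.11 TPM. Aars, the alanyl-tRNA synthetase, changed least of the 5, from 164 ± 14.7 to 136 ± 5.27 TPM (SD, n = 3 each), with a log2 change of -0.26, SE 0.08 and adjusted p = 0.036.

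Before the interferon genes are described, a set of genes that was in every 16 h library and in no 48 h library of DMSO comes first. The deposited table writes 0.0001 in place of 0. At 1 TPM or more in all 3 DMSO 16 h libraries and listed at 0 in all 3 DMSO 48 h libraries were 22 genes, and no gene met the reverse condition. The set was found after the values were seen. It holds Prl2c2 and Prl2c3, which encode the placental hormones called proliferins, the granzymes Gzmb, Gzmc, Gzmd, Gzmf and Gzmg of cytotoxic lymphocytes, and the interferon-induced Tgtp1, Tgtp2, Ly6a, Mlkl, Phf11d and Apol9a. Prl2c2 (ENSMUSG00000079092, chromosome 13, 12996125 to 13005383) stood at 21.0, 16.3 and 23.4 TPM in DMSO 16 h. In erinacine S 16 h it stood at 17.3, 19.7 and 28.1 TPM, and it was listed at 0 in all 6 libraries of 48 h. Gzmc stood at 3.75, 3.75 and 5.78 TPM in DMSO 16 h and Ly6a at 2.36, 1.99 and 2.73 TPM. Of the 22 genes, 16 were also listed at 0 in every erinacine S 48 h library. Prl2c2 and Prl2c3, the granzymes C to G, and Tgtp1 and Tgtp2 have near-identical copies among which reads may be split, so their single values are uncertain.

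Lists of T and NK cell genes and of placental genes were also read, both chosen after the data were seen. The 12 genes of T and NK cells summed to 1.13 to 2.99 TPM at 16 h in DMSO. At 48 h they were lower without overlap, at 0.0621 to 0.325 TPM, and no gene was above 0.835 TPM. The 10 placental genes summed to at most 0.13 TPM at 16 h and 0.159 TPM at 48 h, with 7 of 10 listed at 0 in all 6 libraries. S100a6 and S100a4, calcium-binding proteins abundant in fibroblasts and other non-neuronal cells, were among the largest falls of all. S100a6 stood at 30.1, 23.5 and 37.1 TPM and at 0.949, 2.2 and 0.635 TPM (log2 change -3.82 with SE 0.26; adjusted p = 0.000116), and S100a4 at 17.0, 9.62 and 21.7 TPM and then at 0.844 and 0.351 TPM and listed at 0 in DMSO 48 h replicate 1. Dcn, a matrix proteoglycan of fibroblasts, fell from 2.64 ± 0.615 to 0.272 ± 0.151 TPM (SD, n = 3 each). The origin of these transcripts was not tested.

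**Figure D3:**
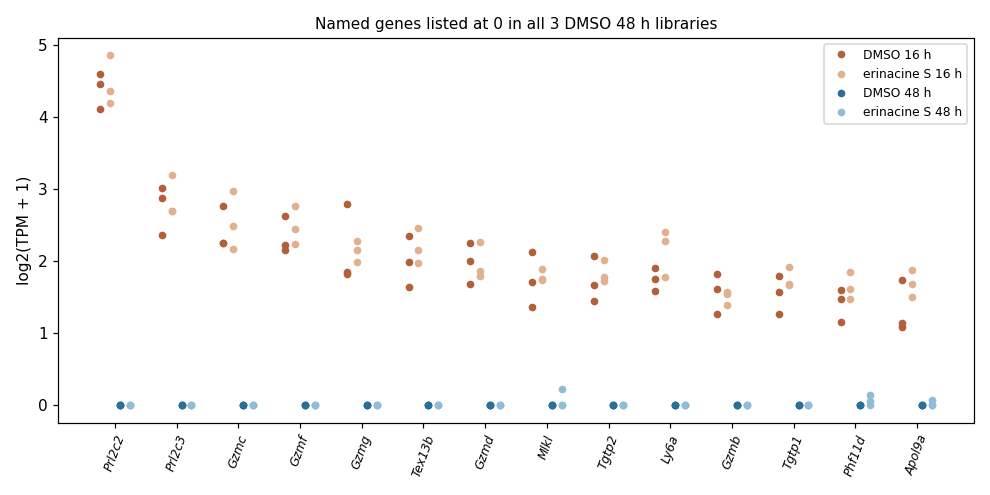
The 14 named genes that were at 1 TPM or more in each DMSO 16 h library and listed at 0 in each DMSO 48 h library, as log2(TPM + 1) in all 12 libraries, 3 points per group. The erinacine S 16 h libraries lie near the DMSO 16 h libraries, and the erinacine S 48 h libraries lie at or near 0.

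Interferon response genes, which cells switch on after sensing viruses or interferon, had the lowest median of the lists with at least 10 members tested. Of 26 tested members 23 fell, none rose and 3 did not pass, with a median of -1.49, and 18 fell by at least 1 on the log2 scale. Members under 1 TPM at 48 h entered through their 16 h levels. The median was -0.90 over the 9 members with a mean of at least 5 TPM, and -2.47 with a pseudocount of 0.1. Leaving out any single library gave 22 or 23 falling members. Cxcl10 (ENSMUSG00000034855, chromosome 5, 92346638 to 92348889), a chemokine that attracts T cells, stood at 17.2, 13.1 and 19.0 TPM and at 0.188, 0.389 and 0.140 TPM (log2 change -3.80 with SE 0.16; adjusted p = 7.81e-05). Isg15, a ubiquitin-like modifier, stood at 10.9, 7.15 and 10.3 TPM and at 0.223 and 0.545 TPM, listed at 0 in DMSO 48 h replicate 3. Rsad2, the antiviral enzyme viperin, fell from 5.99 ± 0.915 to 0.125 ± 0.0482 TPM and Irf7, a transcription factor that amplifies the response, from 4.18 ± 0.962 to 0.311 ± 0.125 TPM (SD, n = 3 each). B2m, of antigen presentation and named after its values were seen, stood at 172, 103 and 141 TPM and at 37.1, 41.1 and 37.6 TPM. The 6 interferon genes looked at, chosen after the data were seen, summed to at most 0.0192 TPM at 16 h and 0.142 TPM at 48 h. The set of genes listed at 0 at 48 h, the fibroblast gene Dcn and the red blood cell markers were also lower at 48 h. Dcn was the only member called of 4 tested fibroblast and meningeal genes, whose median log2 change was 0.04. The part of fibroblasts, blood cells or other cells in the result was not tested.

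Across the gene lists the promoter windows were also searched for E2F sites and for cAMP, heat shock, sterol, antioxidant and hypoxia elements. Those shares are not given here. The core of the interferon-stimulated response element, GAAANNGAA, a motif chosen after the falls were seen, was searched in the same windows on both strands. It was held by 8 of 21 falling interferon genes with a window, 38.1%, against 7.25% of the tested genes and 8.18% of all genes with a window. The list was gathered from genes of the interferon response, so this share too cannot be tied to the fall. The windows of 4 strongly falling genes are shown, with every match in capitals (in Rsad2 on the other strand, as the reverse complement), and overlapping matches run together.
Cxcl10, chr5:92349054-92349139, minus strand: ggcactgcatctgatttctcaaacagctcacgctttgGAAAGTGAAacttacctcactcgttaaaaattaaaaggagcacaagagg
Isg15, chr4:156200848-156200936, minus strand: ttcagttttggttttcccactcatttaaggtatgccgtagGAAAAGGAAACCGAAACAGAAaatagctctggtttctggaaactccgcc
Rsad2, chr12:26456523-26456611, minus strand: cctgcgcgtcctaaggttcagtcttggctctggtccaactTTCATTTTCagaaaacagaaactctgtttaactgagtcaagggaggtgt
Bst2, chr8:71537554-71537642, minus strand: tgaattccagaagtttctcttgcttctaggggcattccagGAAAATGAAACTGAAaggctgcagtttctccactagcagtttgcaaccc
Bst2, which encodes the antiviral membrane protein tetherin, stood at 18.1, 13.2 and 19.8 TPM at 16 h and at 0.943, 2.79 and 1.41 TPM at 48 h.

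Of 18 tested inflammatory genes 7 fell, 2 rose and 9 did not pass (median -0.41). Ccl3, a chemokine of macrophages and microglia, stood at 84.5, 29.4 and 23.2 TPM at 16 h and at 7.63, 6.38 and 8.24 TPM at 48 h (log2 change -2.25 with SE 0.41; adjusted p = 0.00473). The cytokine genes Il1b, at 13.8, 6.04 and 4.20 TPM, and Tnf, at 21.4, 10.2 and 5.85 TPM, were also highest in DMSO 16 h replicate 1. Small nuclear RNA genes, which the deposited table lists beside messenger RNA, were higher in that library too, at 512 TPM in sum against 210 and 175 TPM in the others of 16 h and 110 to 123 TPM at 48 h. The list had 6 falling members and a median of -0.25 without DMSO 16 h replicate 1, and 5 to 8 without any other library. Cxcl14, a chemokine made by interneurons, was a rising member, at 12.1, 14.4 and 19.2 TPM and at 94.5, 77.6 and 63.1 TPM. Ttr, which encodes transthyretin and marks choroid plexus, had the largest rise (3.11 ± 0.86, SE; adjusted p = 0.0268) and rested on single libraries. It stood at 1.76, 1.22 and 28.7 TPM at 16 h and at 39.8, 65.5 and 41.7 TPM at 48 h, and it did not pass without DMSO 16 h replicate 1 or 2 or without any 48 h library.

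Immediate early genes, which synaptic activity and growth factors switch on within minutes, moved both ways in DMSO. Of 36 tested members 13 rose, 7 fell and 16 did not pass (median 0.15), with 5 rising and 3 falling without DMSO 48 h replicate 3 and 8 rising without DMSO 48 h replicate 1. Fos, a subunit of AP-1, stood at 17.9, 12 and 13.6 TPM and at 32.2, 33.4 and 35.1 TPM (log2 change 1.18 with SE 0.13; adjusted p = 0.000761). Npas4 and Nr4a1 rose by 0.55 and 0.67. Ier3, a survival gene, fell from 6.08 ± 0.806 to 2.16 ± 0.651 TPM and Btg2, which restrains proliferation, from 26.6 ± 1.98 to 15.3 ± 0.581 TPM (SD, n = 3 each). The slower activity target Inhba rose by 1.28.

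The 6 erinacine S libraries gave a second measurement of the same interval, sharing no library with the DMSO comparison. The labels do not say whether both arms shared dissections or harvests, so the measurements may not be independent. Erinacine S 48 h replicate 1 stood apart from its partners in markers of non-neuronal cells. The astrocyte markers summed to 42.9 TPM in it against 111 and 110 TPM, those of radial glia to 239 against 752 and 779 TPM, and those of microglia to 1.22 against 8.65 and 11 TPM. By the same test on the same genes, 3489 (22.4%) differed between 16 h and 48 h of erinacine S. That count was 832 and 1268 without erinacine S 16 h replicates 2 and 3, 1603 and 2326 without 48 h replicates 2 and 3, and 3317 without 48 h replicate 1. Of the 5331 genes called in DMSO, 5249 had the same sign (98.5%) and 2892 (54.2%) also passed with that sign, while 1 gene passed in both with opposite signs. Without each of the 6 erinacine S libraries in turn, 5180 to 5245 kept the same sign and 792 to 3000 also passed. Across all genes tested the log2 fold changes correlated with Pearson's r = 0.87, a description across genes, which are not independent. In erinacine S the presynaptic list had 20 rising members and 1 falling, the integrated stress response list 24 falling and none rising, and the interferon list 23 falling and none rising. Without erinacine S 16 h replicate 2 these counts were 3 rising presynaptic and 15 falling stress response members. Without 16 h replicate 3 they were 7 and 16. The astrocyte list had 2 rising members and the radial glia list 1, against 13 and 10 without erinacine S 48 h replicate 1. The immediate early list had 1 rising and 9 falling members, and 3 and 13 without that library; the difference of these counts from DMSO was not tested. Fos had a log2 fold change of -0.28 there (adjusted p = 0.38). The difference between the time effects was tested as an interaction in a limma fit over all 12 libraries. It passed for 0 genes, also without any single erinacine S library. At an unadjusted p under 0.05 there were 437 of 15610 genes. That is fewer than the share of 0.05 that no difference at any gene would give on average. Fos had an interaction of -1.46 in this limma fit (adjusted p = 0.715). No difference in the time effect between the arms was therefore called at this number of libraries.

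**Figure D4:**
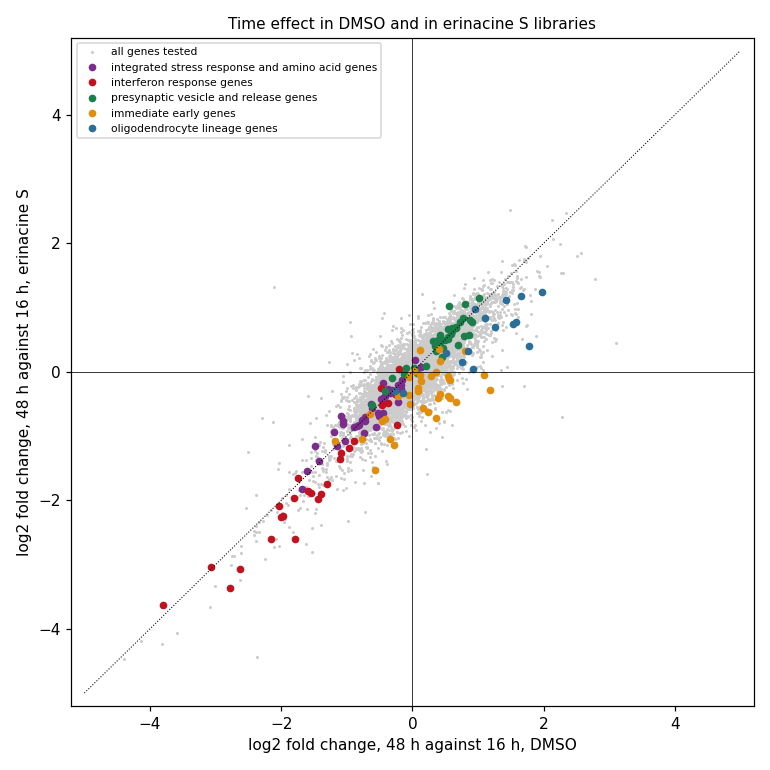
Log2 fold change from 16 h to 48 h in DMSO (horizontal axis) against that in erinacine S (vertical axis) for each gene tested, with members of 5 lists coloured and equality dotted. Interferon and integrated stress response genes lie mostly at the lower left and presynaptic genes mostly at the upper right; most immediate early genes lie below the dotted line.

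The genes that rose were longer than those that fell. The span of a gene, from its first to its last annotated base in the deposited coordinates, had a median of 44.5 kb among 2544 protein-coding genes that rose, 19.2 kb among 2198 that fell and 23.2 kb among 8019 that did not pass. Among the 1276 genes with the longest spans, 142 to 2960 kb, 41.8% rose and 7.84% fell. Among the 1277 with the shortest, up to 4.43 kb, 14.6% rose and 19.8% fell. Spearman's rho between span and log2 fold change was 0.20 across 12761 protein-coding genes, a description across genes with no test. The median log2 fold change of the longest genes was 0.24 in DMSO and 0.22 in erinacine S. Among the genes named above, Kcnip4 spans 1135406 bases, Cadm2 965488 and Rasgrf2 251257, while Isg15 spans 1395 and Cxcl10 2252.

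**Figure D5:**
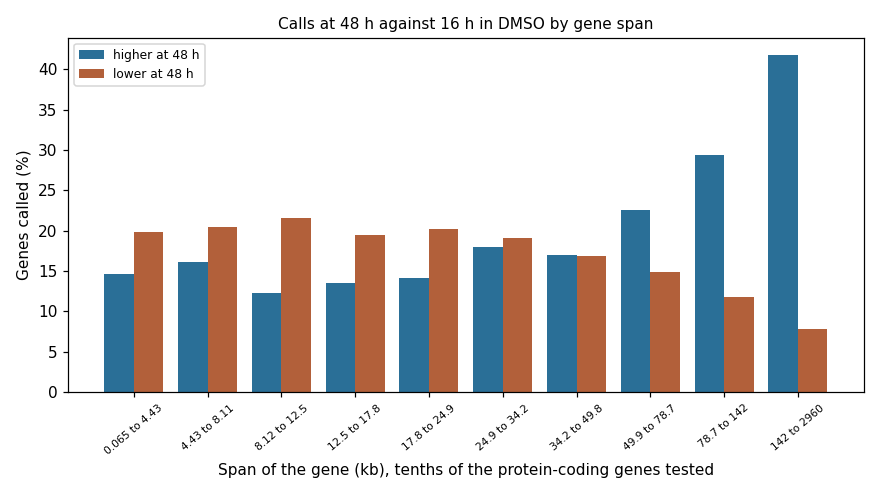
Share of protein-coding genes called higher or lower at 48 h in DMSO, in 10 groups of like size ordered by span. The share that rose goes from 14.6% in the shortest group to 41.8% in the longest, and the share that fell from 19.8% to 7.84%.

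Antisense and long intergenic noncoding genes fell more often than they rose. Of 251 antisense genes tested, 70 (27.9%) fell and 4 (1.59%) rose, and of 323 long intergenic noncoding genes 92 (28.5%) fell and 22 (6.81%) rose. Of 12761 protein-coding genes 19.9% rose and 17.2% fell. Of 39 small nuclear RNA genes 13 fell and 1 rose, beside the high summed level in DMSO 16 h replicate 1 given above. How far that library's other RNA content bears on these counts was not tested.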

How the data were processed

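Per the labels' protocols, total RNA of the neurons went into strand-specific sequencing libraries. The submitters' processing notes name bcl2fastq 2.20, Trimmomatic 0.36, FastQC, HISAT2, SAMtools, StringTie 2.1.3 and the build GRCm38.p5. Which annotation release, filters and strand setting applied is "not given in the sources used here". As the values, the authors deposited 1 table of TPM per gene for all 12 libraries, with 0.0001 in place of 0. Since TPM hold no depth, sequencing depth is unknown, and precision is limited by the number of libraries.

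Genes whose TPM averaged 1 or more over the 6 DMSO libraries entered a limma 3.58.1 fit (R 4.3.3) on log2(TPM + 1) (moderated test with a mean-variance trend, Benjamini-Hochberg adjustment over all genes tested). The fit was tested on simulated data. The erinacine S libraries were fitted alike, and the difference between arms as an interaction over all 12. Promoter windows are RefSeq's on GRCm38.p6, and coordinates of genes are those of the deposited table. The 53 gene lists, and the choice of samples, were made with earlier results of these data known. Named are the 12 largest rises and falls among called genes with non-overlapping libraries, leaving out unnamed gene models, and up to 6 called members of smallest p per list, or 4 of smallest p where a described list has none called; the text gives part of them and says where a gene was chosen otherwise. Lists are described by counts and medians, without a test. Across genes, libraries correlated at 0.987 to 0.990 within 16 h and 0.993 to 0.995 within 48 h. Between 15331 and 15789 genes reached 1 TPM in a DMSO library, and 5.94% to 7.70% of TPM was mitochondrially encoded. The alternatives were a pseudocount of 0.1, no filter, a filter at mean TPM 5, scaling by median ratios, TPM rescaled without mitochondrial genes, a replicate block, all 12 libraries in 1 fit, and leaving out each DMSO library. Leaving out each erinacine S library was added after the data were seen. Of the genes that the rule names, 1 is not reported here.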

Additional observations from a re-analysis of the deposited data

How the results depend on the processing

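The count of 5331 genes was 5318 with a pseudocount of 0.1, 4728 with no filter, 4488 with a mean TPM of at least 5, 5439 with median-ratio scaling and 5406 without mitochondrially encoded genes. Leaving out 1 library at a time gave 3175 to 5367 called genes, 1741 to 2811 higher and 1433 to 2775 lower, with 2198 to 2815 also called in erinacine S with the same sign. That last count was 792 to 3000 when 1 erinacine S library was left out, an alternative chosen after seeing the data. With no filter it was 1474, and with a pseudocount of 0.1 the interaction passed for 1 gene, where the reported fit gave 0. No called gene changed its sign under any of these settings. For the 5306 with non-overlapping libraries, a filter, a pseudocount or 1 library left out could not change it. Of 304 genes named by the rule, 235 kept their call under every alternative that tested them and 69 lost it under at least 1.

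The replicate numbers gave no sign of pairing: the 3 same-numbered pairs of DMSO libraries had deviation correlations of -0.036, -0.187 and -0.011. Differently numbered pairs across the times had -0.0996 to 0.143. So few pairs cannot settle whether the numbers mark shared cultures. A fit with the replicate number as a block called 4034 genes, 2097 higher and 1937 lower. With 3 libraries a group and TPM without depth, low genes are the least certain, and values near the filter may reflect few reads.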
